A study of Mus musculus with 55 samples.

Results

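The genes described here are Gpr3, Gpr12, Adcy3, Adcy9, Pde3a, Wee2 and Cdc25b, which act in the control of meiotic arrest in the mouse oocyte. They were taken by name, as 7 of the 51734 genes listed in each count file, and all 7 passed the filter on low counts. Single oocytes were sequenced as RNA in 52 libraries. Wild-type fully grown oocytes (FGOs, the arrested oocytes of large follicles) gave 18 libraries. FGOs homozygous for Dnmt3L ADD (Dnmt3L ADD/ADD), for Dnmt3a ADD (Dnmt3a ADD/ADD) or for both (the double mutant, Dnmt3a ADD/ADD Dnmt3L ADD/ADD) gave 8 libraries each. Wild-type oocytes at metaphase of the second meiotic division (MII) gave 10 libraries. The ADD alleles are CRISPR-Cas9 point changes from aspartate to alanine in the ADD domain, the part of the DNA methyltransferase DNMT3A and of its partner DNMT3L that binds histone H3 unmethylated at lysine 4, and they were carried on C57BL/6J. FGOs came from females 10 to 12 weeks old and were washed free of cumulus cells. The methods describe MII oocytes only for in vitro fertilisation, from the oviducts of females given inhibin antiserum and chorionic gonadotropin, and do not say whether the sequenced MII oocytes came the same way. Collected FGOs were held together in medium before storage and the labels do not tie a library to a female, so each library is 1 oocyte and p-values measure the spread between oocytes, which may differ from that between females. A gene count cannot show a point change, so the genotypes could not be checked from these files.

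An oocyte stays arrested at prophase of the first meiotic division while its cyclic AMP (cAMP) is high. The receptors GPR3 and GPR12 signal through the stimulatory G protein to adenylyl cyclases such as ADCY3 and ADCY9, which make cAMP, and the phosphodiesterase PDE3A breaks it down once cyclic GMP from the follicle cells falls. Protein kinase A (PKA), which cAMP turns on, keeps the oocyte kinase WEE2 active and the phosphatase CDC25B inactive, so that CDK1, the kinase that drives entry into division, stays off. WEE2 acts again after MII, when it helps the fertilised egg to leave meiosis.

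The deposited values are whole-number read counts per gene. They are given here as CPM, the count of a gene in a library brought to a total of 1000000 with the TMM factors of edgeR, or as CPM per kilobase of exon where 1 gene is compared with another. CPM is a share of a library, so the amount of an RNA per oocyte was not measured, and since libraries were primed on poly(A) tails, amount and tail length cannot be told apart. The totals ran from 7832458 to 23739871 counts a library over the 52 libraries. Wild-type FGO replicates 1 to 8 and all 8 double mutants had under 80% of reads mapped, while wild-type FGO replicates 9 to 18 and all 8 Dnmt3L ADD/ADD libraries had at least 80%. Replicates 1, 2 and 8 of Dnmt3a ADD/ADD and 1, 5 and 6 of MII were under 80%, and the rest of those groups were not. The 12 oocyte markers, such as Gdf9 and Bmp15, summed to between 7284 and 12434 CPM over the 52 libraries, so the label of oocyte held in each. Markers of granulosa and cumulus cells summed to 307 to 446 CPM in wild-type FGOs and to 301 to 363 CPM in MII oocytes, with Amh and Inhbb at 0 in every MII library. Serpine2 alone made up 50.8% of this list in wild-type FGOs (187 CPM on average) and 62.6% in MII oocytes (207 CPM). The median log2 fold change of the 12 markers from wild-type FGOs to MII oocytes was -2.38, so the sums hide the fall of most of them. The 6 theca and interstitial markers summed to 14.4 to 147 CPM in wild-type FGOs, to 2.09 to 5.92 CPM in double mutants and to 2.18 to 12.5 CPM in MII oocytes.

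A contrasting pair of start regions is shown because the mutated proteins act on DNA methylation, whose usual target in mammals is the CG dinucleotide. Each sequence runs from 250 bases before to 50 bases after the RefSeq start of the gene (GRCm38.p6), on the strand of the gene, with every CG in capitals. Gpr3 lies on the minus strand and the window is chr4:133212487-133212786. Wee2 lies on the plus strand and the window is chr6:40442613-40442912. The RefSeq start of Gpr3 is that of the gene in the count files, while that of Wee2 lies 3775 bases inside the counted gene.
Gpr3: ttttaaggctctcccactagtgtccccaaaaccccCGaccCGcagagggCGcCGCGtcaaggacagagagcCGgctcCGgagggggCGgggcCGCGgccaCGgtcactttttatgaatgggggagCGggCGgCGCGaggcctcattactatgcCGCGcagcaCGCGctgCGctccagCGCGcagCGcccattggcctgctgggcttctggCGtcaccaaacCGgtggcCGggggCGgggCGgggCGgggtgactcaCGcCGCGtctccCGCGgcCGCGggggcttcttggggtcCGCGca
Wee2: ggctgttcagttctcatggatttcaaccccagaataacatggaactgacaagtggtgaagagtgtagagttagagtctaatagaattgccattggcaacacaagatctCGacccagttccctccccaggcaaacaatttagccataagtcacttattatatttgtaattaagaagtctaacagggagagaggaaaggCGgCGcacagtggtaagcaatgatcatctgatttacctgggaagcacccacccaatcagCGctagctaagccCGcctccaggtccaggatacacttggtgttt
The Gpr3 window held 38 CG dinucleotides at a GC content of 72.0%, and 4.95% of the 32851 RefSeq windows of this length held as many. The Wee2 window held 5 at 46.0% GC, below the median of 7 over all windows, and 62.0% of windows held at least as many. Windows were found for 6 of the 7 genes, with none for Pde3a. The Adcy9 window held the most, 42, above that of Gpr3. The Cdc25b window held 20, those of Adcy3 held 33 and 7, and those of Gpr12 held 8 and 11. The CG motif reads the same on both strands, and the count is a description of the letters only. No methylation value was analysed here.

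The genes are spread over the mm10 genome. Gpr3 covers chromosome 4, 133209340 to 133212536, and Gpr12 covers chromosome 5, 146582398 to 146585239, both on the minus strand. Adcy3 covers chromosome 12, 4133103 to 4213525 on the plus strand, and Adcy9 covers chromosome 16, 4287529 to 4420498 on the minus strand. Pde3a and Wee2 both lie on the plus strand of chromosome 6, at 141249269 to 141507448 and at 40439088 to 40466813. Cdc25b covers chromosome 2, 131186949 to 131198497 on the plus strand. Exons of other genes on the opposite strand overlap 22.1% of the exon bases of Adcy3 (Cenpo), 7.46% of those of Gpr3 (Cd164l2), 5.82% of those of Pde3a (Gm28523) and 2.47% of those of Cdc25b (Spef1). The library kit does not mark strand, so reads in these stretches cannot be told apart.

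Per length, Wee2 was by far the most abundant of the 7 RNAs. In wild-type FGOs it stood at 184 ± 21.3 CPM per kilobase (SD, n = 18), the 143rd highest of 38217 genes with a level. Pde3a followed at 42.2 ± 3.29 CPM per kilobase (SD, n = 18), then Gpr3 at 29.4 ± 3.50 and Cdc25b at 24.8 ± 3.01. Adcy9 was lower, at 10.2 ± 1.44 CPM per kilobase (SD, n = 18), and below Adcy5, a cyclase outside the 7, at 16.8. Gpr12 at 1.14 ± 0.229 and Adcy3 at 0.541 ± 0.128 CPM per kilobase were the scarce members of the receptor pair and of the cyclase pair. This order held in 14 of 18 wild-type FGOs. Gpr3 and Cdc25b changed places in the other 4. The ranges of Pde3a and Gpr3, and of Gpr12 and Adcy3, overlapped too, but within each wild-type FGO the first of each pair stood higher.

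**Figure D1:**
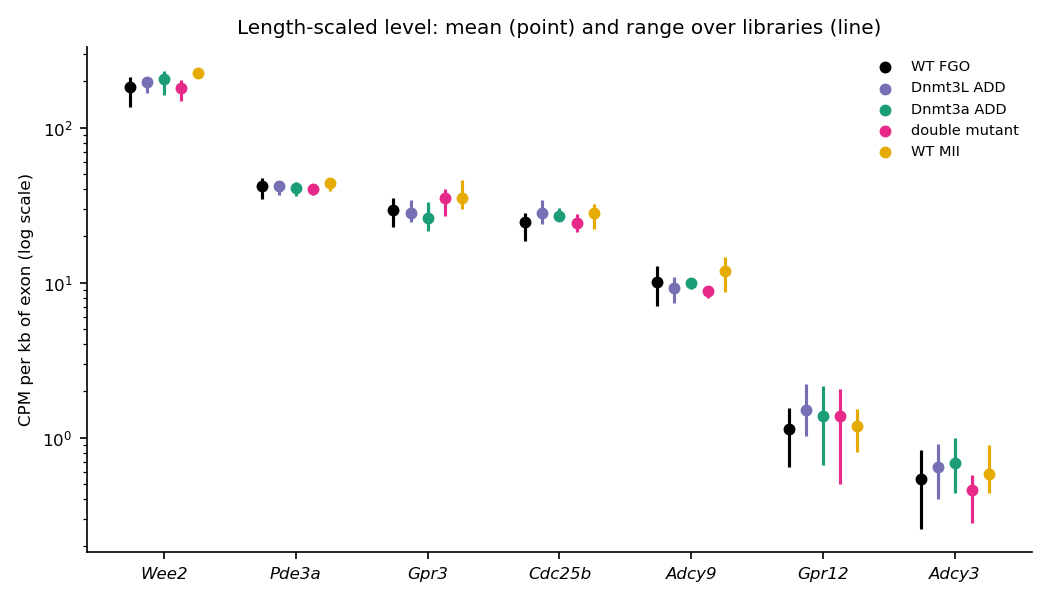
Level of each gene in CPM per kilobase of exon on a log axis, with the mean of each group as a point and the range over its libraries as a line. Wee2 lies highest in every group, and Gpr12 and Adcy3 lie lowest, at 1.14 and 0.541 CPM per kilobase on average in wild-type FGOs.

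Within a library the CPM of Gpr3 was a geometric mean of 28.5 times that of Gpr12 in wild-type FGOs (log2 4.83 ± 0.28, SD, n = 18) and 32.3 times in MII oocytes. Adcy9 stood at 15.9 times Adcy3 in wild-type FGOs and 17.3 times in MII oocytes. These are ratios of CPM and not per length. The pair of arrest regulators at the end of the chain, Wee2 and Cdc25b, kept a ratio of 6.25 in wild-type FGOs, 6.36 in Dnmt3a ADD/ADD, 5.88 in Dnmt3L ADD/ADD, 6.20 in double mutants and 6.80 in MII oocytes, and the SDs on the log2 scale ran up to 0.23. The ratio of Pde3a to Gpr3, enzyme that removes cAMP to receptor that raises it, was 6.70 in wild-type FGOs, 7.24 in Dnmt3a ADD/ADD, 6.90 in Dnmt3L ADD/ADD, 5.39 in double mutants and 5.89 in MII oocytes. It was already 5.83 in wild-type replicates 1 to 8 and 7.50 in replicates 9 to 18.

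**Figure D2:**
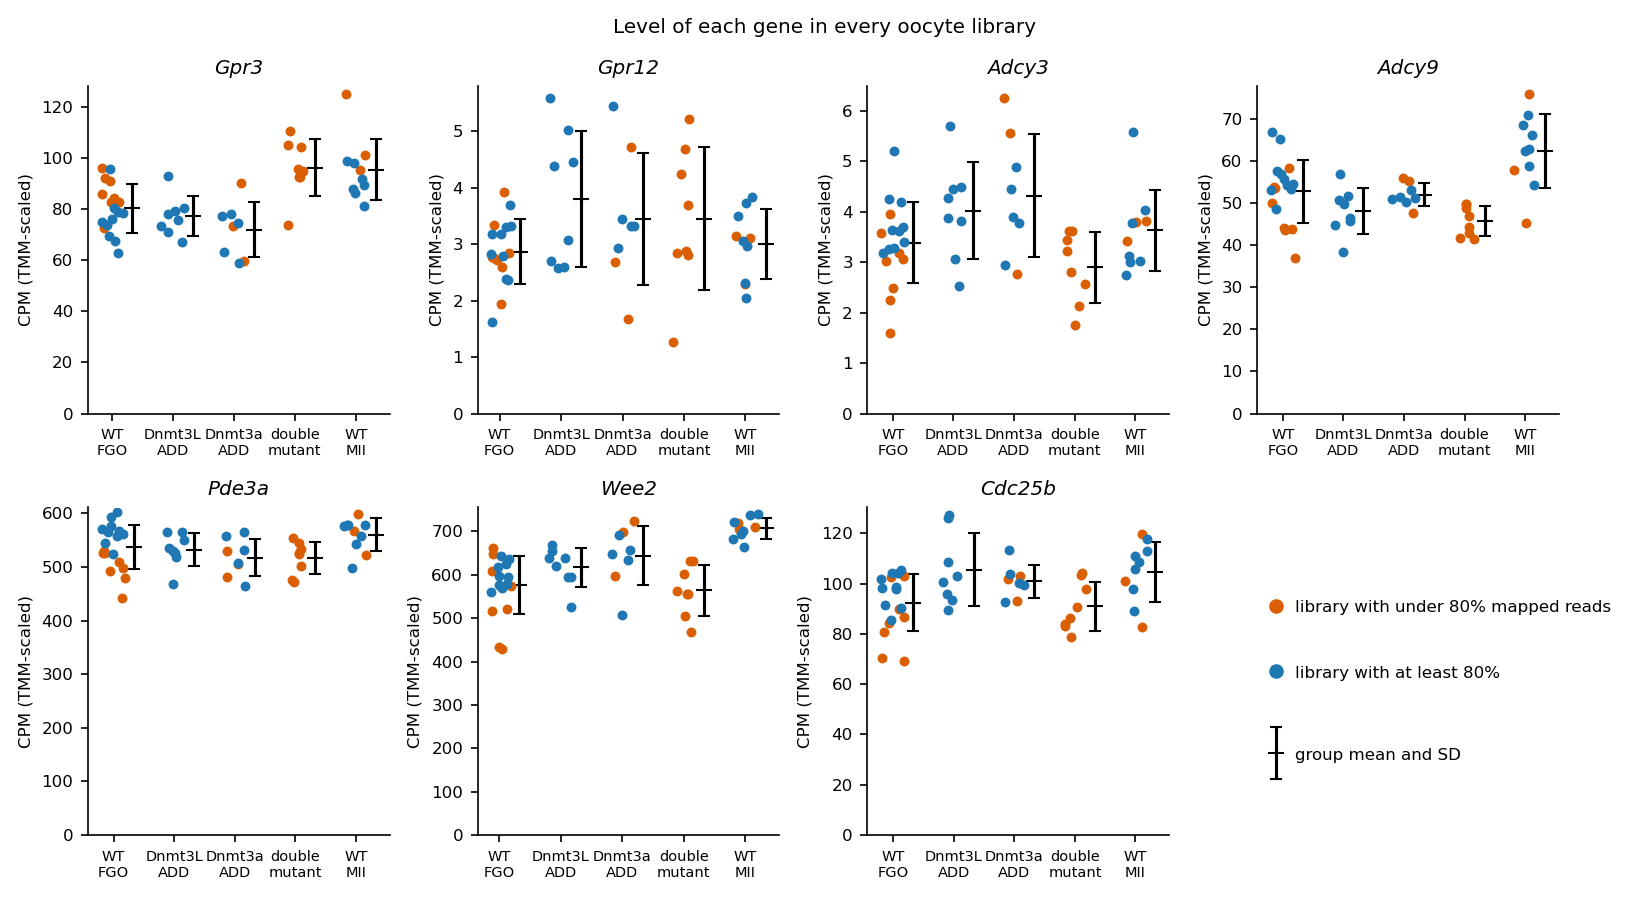
CPM of each gene in every library by group, with the group mean and SD as a bar and colours for libraries with under or at least 80% of reads mapped. The MII points of Wee2 all sit above the wild-type FGO points, from 663.4 CPM against a highest of 662.5 CPM.

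The first comparison asked how the levels stood before and after maturation, in wild-type FGOs and MII oocytes. Of the 7 RNAs, 4 (Wee2, Gpr3, Adcy9 and Cdc25b) were higher in MII oocytes, by 1.13 to 1.22 fold, and none was lower. A gene was called where its adjusted p over all genes tested was under 0.05. By this rule 39.1% of the 15784 genes tested were called, 16.5% higher and 22.6% lower. The lower share of all calls was 57.7%, or 72.7% where libraries were scaled by total count only, under which Cdc25b was not called (log2 fold change 0.11, adjusted p = 0.133). With the further limit of a 2-fold change, which 9.2% of genes passed, 0 of the 7 were called. The median log2 change of the 7 was 0.18, against -0.05 over all genes tested.

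Among the receptors, Gpr3 ranged from 62.8 CPM through a median of 79.7 to 96.3 CPM in wild-type FGOs. In MII oocytes it ranged from 81.2 through 93.6 to 125.0 CPM. The groups overlapped, with 10 of 10 MII oocytes above the wild-type median and 4 of 10 above the highest wild-type FGO. The log2 fold change was 0.25 (SE 0.0678, 95% interval 0.11 to 0.39, adjusted p = 0.00296), and its size was larger than that of 56.2% of genes. Cd164l2, which shares exon bases with Gpr3, was higher too, at log2 0.26. Gpr12, the second receptor, ranged from 1.63 through 2.81 to 3.93 CPM in FGOs and from 2.04 through 3.09 to 3.84 CPM in MII oocytes, which overlapped almost wholly (log2 fold change 0.07, adjusted p = 0.785). These values rest on 25 to 63 counts a library in FGOs and 23 to 47 in MII oocytes.

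Of the cyclases, Adcy9 ranged from 37.0 through 53.8 to 66.9 CPM in FGOs and from 45.2 through 62.6 to 75.8 CPM in MII oocytes. The ranges overlapped, with 3 of 10 MII oocytes above the highest FGO. The log2 fold change was 0.24 (SE 0.0685, 95% interval 0.10 to 0.37, adjusted p = 0.00496). Adcy3 ranged from 1.60 through 3.34 to 5.21 CPM in FGOs and from 2.75 through 3.59 to 5.57 CPM in MII oocytes, and was not called (log2 fold change 0.10, adjusted p = 0.611). Pde3a ranged from 443 through 538 to 603 CPM in FGOs and from 498 through 572 to 598 CPM in MII oocytes. Its change of 0.06 on the log2 scale had a 95% interval of -0.02 to 0.14 and did not pass (adjusted p = 0.242).

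Wee2 showed the clearest separation. It ranged from 429 through 587 to 662.5 CPM in wild-type FGOs and from 663.4 through 708 to 740 CPM in MII oocytes. All 10 MII oocytes stood above all 18 FGOs, though the nearest values nearly touched. How many of all genes tested separated in this way was not counted. The MII oocytes varied little in Wee2 (707 ± 23.7 CPM, SD, n = 10, a coefficient of variation of 3.34%). The log2 fold change was 0.29 (SE 0.0552, 95% interval 0.18 to 0.40, adjusted p = 3.59e-05). Apart from the 2-fold limit, it was called under each of 14 alternatives, at 0.23 to 0.39. Cdc25b, the opposing phosphatase, ranged from 69.4 through 94.7 to 105 CPM in FGOs and from 82.8 through 107 to 120 CPM in MII oocytes. The groups overlapped, with 6 of 10 MII oocytes above the highest FGO, and the log2 fold change was 0.18 (SE 0.0645, 95% interval 0.05 to 0.31, adjusted p = 0.0237).

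These calls depended on which wild-type FGOs were used. The share of all genes called was 48% against replicates 1 to 8 and 27.9% against replicates 9 to 18. Against replicates 1 to 8 only, Gpr3 was no longer called (log2 fold change 0.16, adjusted p = 0.0850) and Pde3a was (0.17, adjusted p = 0.00154). Against replicates 9 to 18 only, Adcy9 (0.15, adjusted p = 0.0875) and Cdc25b (0.11, adjusted p = 0.192) were not called. Wee2 passed in both. Mean Pde3a was 501 ± 29.5 CPM (SD, n = 8) in replicates 1 to 8 and 566 ± 22.6 CPM (SD, n = 10) in replicates 9 to 18, with 9 of 10 of the latter above the highest of the former. Without MII replicate 1, 7 or 8, Cdc25b was not called, at 0.16, 0.16 and 0.15 (adjusted p = 0.0592, 0.0511 and 0.0601). The theca and interstitial markers, of which 5 of 5 tested fell in MII oocytes, moved with this comparison, and their part in it was not tested.

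**Figure D3:**
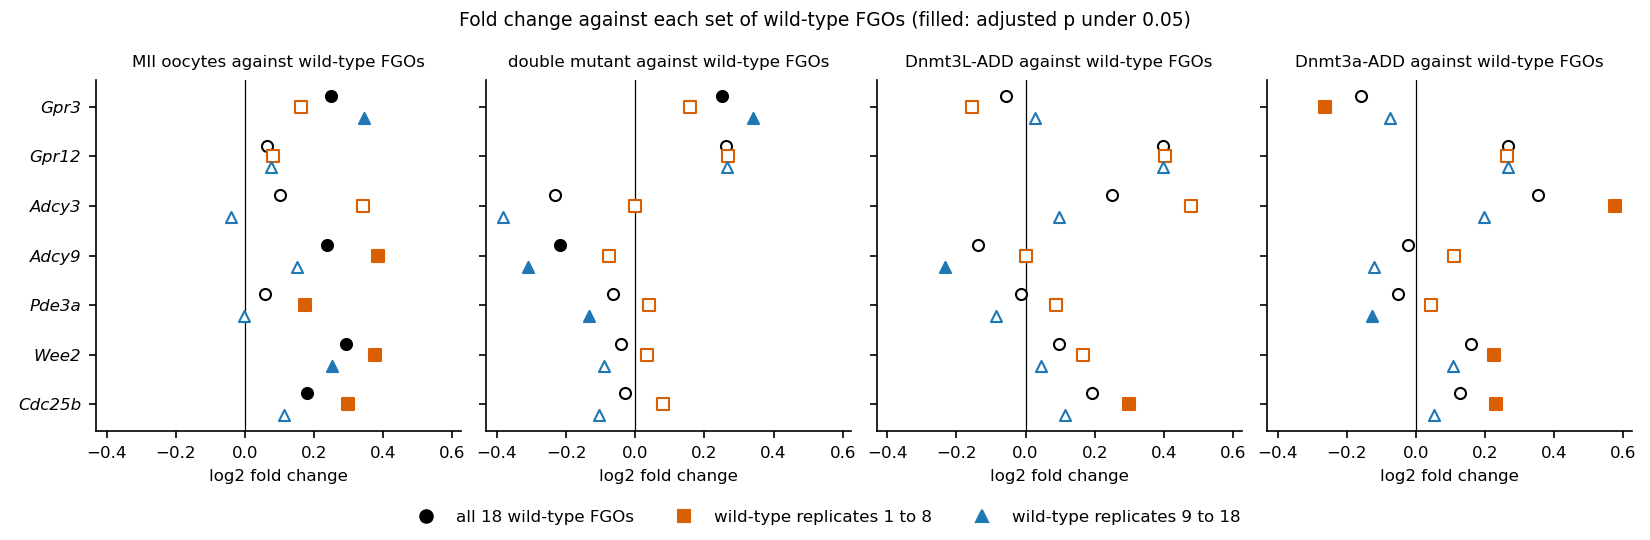
Log2 fold change of each gene in MII oocytes and the 3 mutants, against all wild-type FGOs (circles), replicates 1 to 8 (squares) or 9 to 18 (triangles), filled where the adjusted p was under 0.05. The Wee2 change in MII oocytes is above 0 against each set, while that of Pde3a is 0.17 against replicates 1 to 8.

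The other genes of the pathway were taken from 6 fixed lists. Of the 10 G protein genes, 4 rose in MII oocytes and 0 fell. They were Rgs2, a brake on G protein signalling, from 440 ± 44.8 to 510 ± 39.2 CPM (SD; log2 0.21), Gnai2 (0.19), Gnaz (0.38) and Gnai1 (0.25), the last 3 encoding inhibitory G protein subunits. The stimulatory subunit gene Gnas was not called. Of the 5 other cyclases tested, 0 rose and 2 fell, Adcy10, the soluble cyclase, by 1.22 and Adcy1 by 1.18 on the log2 scale. Adcy10 was near the floor, at 1.04 CPM on average in wild-type FGOs and 0.44 CPM in MII oocytes. Adcy1 varied widely in wild-type FGOs (48.9 ± 39.8 CPM, SD, 16.3 to 144 CPM), and its MII range of 16.7 to 29.2 CPM lay inside theirs. Of 15 other phosphodiesterases, 2 rose and 4 fell, led by Pde7b (-3.59), Pde5a (-1.30) and Pde7a (-1.35), each under 11 CPM on average in FGOs. Pde1a was the other that fell (-0.83), and Pde8a (0.24) and Pde3b, the sister gene of Pde3a (0.17), rose. Pde7b spanned 1.72 to 69.4 CPM among wild-type FGOs.

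Of 10 PKA genes, 3 rose and 1 fell. Akap10, an anchor of PKA, went from 120 ± 8.78 to 142 ± 8.19 CPM (SD; log2 0.24), the regulatory subunit gene Prkar2a rose by 0.17 and the anchor gene Akap1 by 0.11 on the log2 scale, and the inhibitor gene Pkib fell by 0.57. In the group of C-type natriuretic peptide, cGMP and gap junction genes, 0 of 6 rose and 3 fell, Impdh2, an enzyme of GTP synthesis (-2.03), the connexin gene Gja1 (-2.29) and the natriuretic peptide receptor gene Npr2 (-2.20). Gja1 and Npr2 are genes of follicle cells, and Gja1 is among the granulosa and cumulus markers, of which 8 of 12 fell in MII oocytes; the part of follicle cell RNA in these changes was not tested. Of 18 genes of CDK1 and its controls, 5 rose and 3 fell. Cdc25a, a phosphatase like Cdc25b, went from 188 ± 20.3 to 226 ± 13.9 CPM (SD; log2 0.27) and Ppp2ca, a phosphatase catalytic subunit, rose by 0.15 on the log2 scale. Ywhah (0.22), whose 14-3-3 protein binds CDC25B in arrested oocytes, Akt1 (0.19) and Chek1 (0.14) were the other 3 that rose, and Arpp19 (-0.16) and Cdc14b (-0.57) fell beside Wee1. Wee1, the body-wide relative of Wee2, fell by 0.68 from 37.3 ± 18.5 to 23.2 ± 3.89 CPM (SD), opposite in direction to Wee2. Over the 6 lists 27 of 64 genes tested were called, 42.2%, near the 39.1% of all genes. Whether these calls, that of Wee1 among them, held against either set of wild-type replicates was not tested. Of all genes 48% were called against replicates 1 to 8 and 27.9% against replicates 9 to 18.

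**Figure D4:**
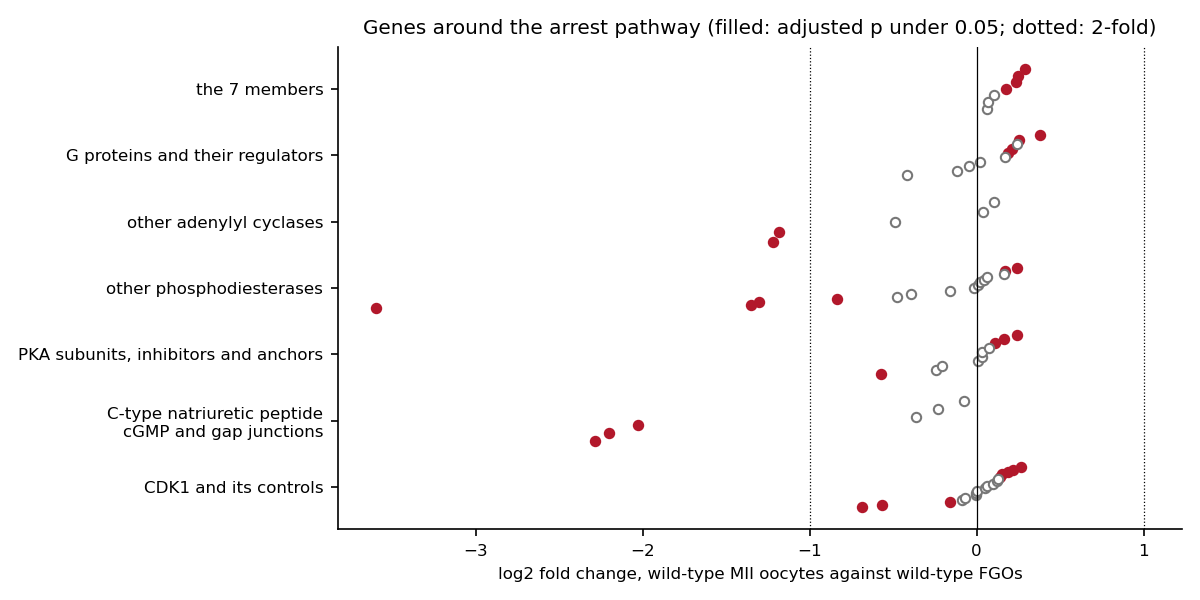
Log2 fold change from wild-type FGOs to MII oocytes of the members and of the genes in the pathway lists, 1 point a gene, filled where the adjusted p was under 0.05, with dotted lines at a 2-fold change. Pde7b, at -3.59, Gja1, at -2.29, and Npr2, at -2.20, lie farthest below 0, and Wee2, at 0.29, lies among the genes with small changes.

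In FGOs the comparisons asked whether a mutated ADD domain in either protein, or in both, changed these genes. With the 2-fold limit 0 of the 7 were called in each of the 7 FGO comparisons, a rule that 2.05% of genes passed for Dnmt3a ADD/ADD, 0.655% for Dnmt3L ADD/ADD and 1.65% for the double mutant against wild type. Without that limit, in Dnmt3L ADD/ADD oocytes 0 of the 7 were called, where 6.13% of 15726 genes tested were, and 2 of the 7 had an unadjusted p under 0.05. Those were Cdc25b, which ranged from 89.5 through 102 to 127 CPM (log2 fold change 0.19, adjusted p = 0.0913), and Gpr12, from 2.58 through 3.73 to 5.59 CPM (0.40, adjusted p = 0.190). Both overlapped the wild-type range. In Dnmt3a ADD/ADD oocytes 0 of the 7 were called as well, where 15.7% of genes were, and 3 of the 7 had an unadjusted p under 0.05. For neither mutant was the share of all genes at that unadjusted limit counted. Wee2 ranged from 507 through 653 to 724 CPM (0.16, adjusted p = 0.0897), Adcy3 from 2.77 through 4.17 to 6.26 CPM (0.35, adjusted p = 0.125) and Gpr3 from 58.8 through 74.0 to 90.4 CPM (-0.16, adjusted p = 0.133), and each overlapped wild type. DESeq2 and the exact test of edgeR also called 0 of the 7 in both mutants. DESeq2 called 18.5% of all genes in Dnmt3a ADD/ADD and 8.4% in Dnmt3L ADD/ADD, and the exact test 14% and 5.8%. Against wild-type replicates 1 to 8 only, where 28.8% of all genes were called for Dnmt3a ADD/ADD and 22% for Dnmt3L ADD/ADD, 4 of the 7 were called in Dnmt3a ADD/ADD (Gpr3 -0.26, Adcy3 0.58, Wee2 0.23 and Cdc25b 0.23), and Cdc25b was called in Dnmt3L ADD/ADD (0.30, adjusted p = 0.0108). Without Dnmt3a ADD/ADD replicate 2 Gpr3 was called there (-0.22, adjusted p = 0.0460), and without replicate 4 Wee2 was (0.19, adjusted p = 0.0339).

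The remaining values of the single mutants overlapped wild type. Pde3a stood at 537 ± 41.9 CPM in wild type (SD, n = 18), 532 in Dnmt3L ADD/ADD and 517 in Dnmt3a ADD/ADD. Adcy9 stood at 52.8 ± 7.49 CPM in wild type, and had medians of 48.1 CPM in Dnmt3L ADD/ADD and 51.4 CPM in Dnmt3a ADD/ADD oocytes. Against wild-type replicates 9 to 18 only, where 6.85% and 14.6% of all genes were called in these mutants, Adcy9 was lower in Dnmt3L ADD/ADD (log2 fold change -0.23, adjusted p = 0.0182) and Pde3a in Dnmt3a ADD/ADD (-0.13, adjusted p = 0.0306). In each case 4 of 8 mutants lay below the lowest of those replicates. Wee2 in Dnmt3L ADD/ADD stood at 617 ± 45.1 CPM (SD, n = 8) with a highest value of 668 CPM, while there Gpr3 ranged from 67.0 through 77.0 to 93.0 CPM and Adcy3 from 2.52 through 4.07 to 5.69 CPM, all overlapping wild type. In Dnmt3a ADD/ADD, Cdc25b ranged from 92.8 through 101 to 114 CPM and Gpr12 from 1.68 through 3.32 to 5.46 CPM, and these overlapped wild type as well.

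The double mutant differed from wild type at 2 of the 7, where 12.2% of genes were called. Of those, 55.0% were lower, or 65.7% with upper quartile scaling. Gpr3 rose, ranging from 73.9 through 95.3 to 110.7 CPM, with 7 of 8 oocytes above the wild-type median and 3 of 8 above the highest wild-type oocyte (log2 fold change 0.25, SE 0.0725, adjusted p = 0.0209). Adcy9 fell, ranging from 41.4 through 45.5 to 49.9 CPM, inside the wild-type range and with 0 of 8 above the wild-type median (-0.22, SE 0.0727, adjusted p = 0.0424). Pde3a (516 ± 30.2 CPM, log2 fold change -0.07), Wee2 (564 ± 57.9 CPM, -0.04) and Cdc25b (91.0 ± 9.71 CPM, -0.03) were not called (SD, n = 8), nor were Gpr12 (0.26) and Adcy3 (-0.23). All double mutants had under 80% of reads mapped. Against wild-type replicates 1 to 8, which had the same, the log2 fold change of Gpr3 was 0.16 (adjusted p = 0.459) and that of Adcy9 -0.08, and neither was called. Of all genes 1.43% were called there. Against replicates 9 to 18, where 37.8% of all genes were called, Gpr3 (0.34), Adcy9 (-0.31) and Pde3a (-0.135) were called. Without double mutant replicate 3 Gpr3 was not called (0.22, adjusted p = 0.0619), and Adcy9 was lost without any 1 of wild-type replicates 8 to 14 or 16 to 18, or of double mutant replicates 2, 3, 4, 7 and 8 (-0.22 to -0.19). The theca and interstitial markers stood at 2.09 to 5.92 CPM in double mutants against 14.4 to 147 CPM in wild type, and their part in these calls was not tested. Cd164l2, the overlapping neighbour of Gpr3, had a log2 fold change of 0.06 against wild type and was not called (adjusted p = 0.576).

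**Figure D5:**
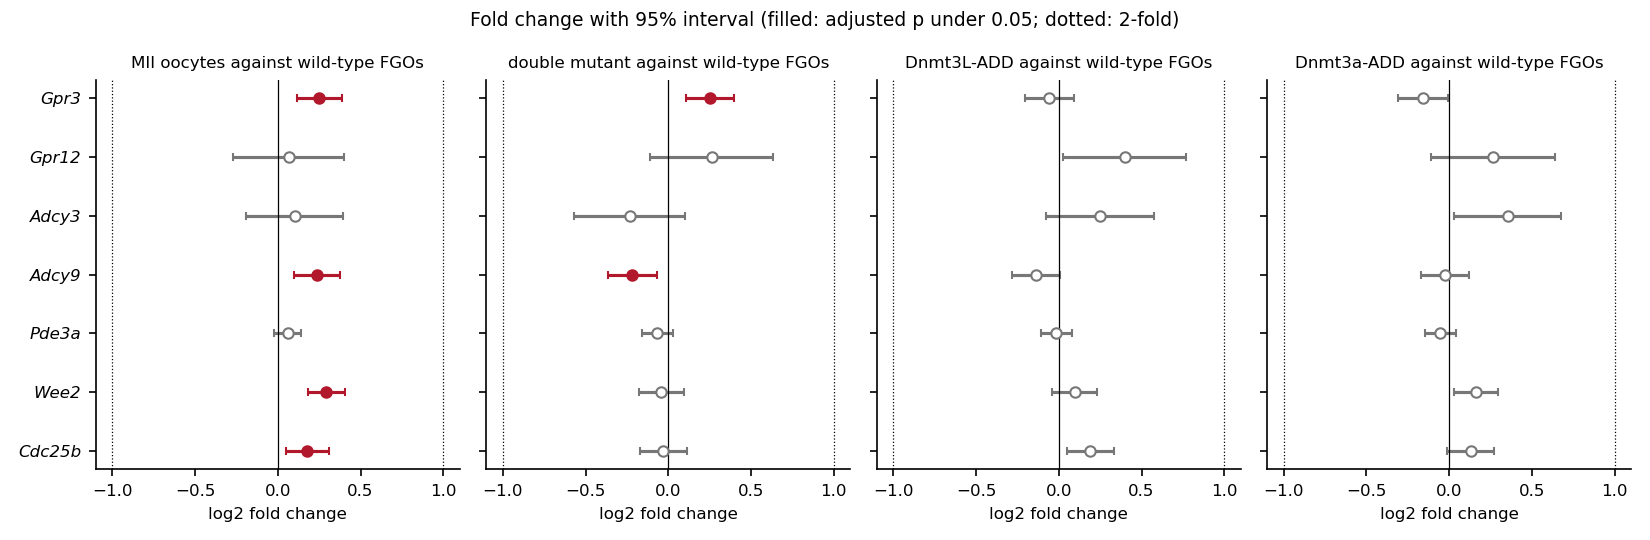
Log2 fold change of the 7 genes with 95% intervals in MII oocytes and the 3 mutants against wild-type FGOs, filled where the adjusted p was under 0.05, with dotted lines at a 2-fold change. In MII oocytes Wee2, Gpr3, Adcy9 and Cdc25b lie above 0, at 0.29, 0.25, 0.24 and 0.18, and in the double mutant Gpr3 (0.25) and Adcy9 (-0.22) lie on opposite sides of 0.

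The double mutant was also set against each single mutant. Against Dnmt3a ADD/ADD, Gpr3 was higher by 0.41 on the log2 scale (SE 0.0865, adjusted p = 5.85e-04) and Adcy3 (-0.59, SE 0.193, adjusted p = 0.0186) and Wee2 (-0.20, SE 0.0786, adjusted p = 0.0461) were lower, 3 of 7 where 30.9% of genes were called (5.86% with the 2-fold limit). Wee2 was lost in 13 of 16 runs that each left out 1 library, and kept only without Dnmt3a ADD/ADD replicate 4 or double mutant replicates 1 or 6, while Adcy3 was lost without Dnmt3a ADD/ADD replicate 8 (-0.48, adjusted p = 0.0596). With mapped share as a covariate, where 12.9% of all genes were called, only Gpr3 was (0.32). Among libraries under 80% mapped only, where 11% of all genes were called, Gpr3 was not (adjusted p = 0.0602). Cenpo, which overlaps 22.1% of the exon bases of Adcy3, was lower in the same comparison (-0.47, adjusted p = 7.68e-04), and Cd164l2, which overlaps Gpr3, was higher (0.23, adjusted p = 0.0181). Of the 12 oocyte markers 10 rose here, with a median log2 fold change of 0.42, and their sums, 11002 to 12434 CPM in double mutants and 7284 to 9294 CPM in Dnmt3a ADD/ADD, did not overlap. Of the theca markers 3 of 5 fell. Among the 12 granulosa and cumulus markers 4 fell and 1 rose, and the part of these shifts in the calls was not tested. Against Dnmt3L ADD/ADD, Gpr3 was higher by 0.31 (SE 0.0865, adjusted p = 0.00916) and Cdc25b lower, at -0.22 (SE 0.0832, adjusted p = 0.0464), 2 of 7 where 24.2% of genes were called (4.03% with the 2-fold limit). Cdc25b was lost without any 1 of Dnmt3L ADD/ADD replicates 2 and 4 to 7 or double mutant replicates 1, 3, 4, 7 and 8 (-0.23 to -0.17), and Adcy3 was called without Dnmt3L ADD/ADD replicate 1 (-0.55). All Dnmt3L ADD/ADD libraries had at least 80% of reads mapped and all double mutants under 80%, so genotype and mapped share cannot be told apart there. In that comparison 9 of 12 oocyte markers rose and 3 of 5 theca markers fell. Of the 12 granulosa and cumulus markers 5 fell and 1 rose, and the part of these shifts in the calls was not tested. Cenpo was lower there (-0.33, adjusted p = 0.0173). Between the 2 single mutants 0 of the 7 genes were called by edgeR, DESeq2 or the exact test. Of all genes edgeR called 0.0127% (0% with the 2-fold limit), DESeq2 0.293% and the exact test 0.521%. By edgeR 0 of the 7 had an unadjusted p under 0.05, a share not counted over all genes.

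A test of the difference itself asked whether the double mutant departed from the sum of the single mutant changes. It did at 4 of 7 genes, where 35.6% of genes were called (10.3% with the 2-fold limit). Gpr3 was higher than that sum, by 0.47 on the log2 scale (SE 0.114, adjusted p = 0.00151). Adcy3 (-0.83, SE 0.251, adjusted p = 0.00879), Cdc25b (-0.35, SE 0.109, adjusted p = 0.0110) and Wee2 (-0.30, SE 0.103, adjusted p = 0.0219) were lower than it. The overlapping genes departed the same way, Cd164l2 by 0.34 (adjusted p = 0.00773) and Cenpo by -0.61 (adjusted p = 5.27e-04). Of the oocyte markers 10 of 12 lay above the sum, at a median of 0.64, and 3 of 5 theca markers lay below it, and their part was not tested. With the class of mapped share as a covariate 0 of the 4 were called, where 14.2% of all genes were, and Gpr3 stood at 0.31 (adjusted p = 0.101). Wee2 was lost without Dnmt3a ADD/ADD replicate 1 (-0.26) or double mutant replicate 4 (-0.24) or 7 (-0.26).

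Of the 64 genes tested in the 6 pathway lists, 11 (17.2%) were called in Dnmt3a ADD/ADD, 4 (6.25%) in Dnmt3L ADD/ADD and 5 (7.81%) in the double mutant against wild type, beside 15.7%, 6.13% and 12.2% of all genes. The double mutant differed from Dnmt3a ADD/ADD at 23 (35.9%) and from Dnmt3L ADD/ADD at 11 (17.2%), and departed from additivity at 24 (37.5%), beside 30.9%, 24.2% and 35.6% of all genes. Gnas, the stimulatory G protein subunit downstream of GPR3, fell in both single mutants, by 0.50 in Dnmt3L ADD/ADD and by 0.79 on the log2 scale in Dnmt3a ADD/ADD, from 13.2 ± 3.13 CPM (SD, n = 18) in wild type to 9.28 ± 2.31 and 7.63 ± 1.31 (SD, n = 8). It was not called in the double mutant, at 15.7 ± 1.49 CPM (SD, n = 8). Gnaz fell in Dnmt3L ADD/ADD as well (-0.47). Cdc25a rose in both single mutants (0.30 and 0.35), as did Akt1 (0.33 and 0.23), a kinase that favours CDK1 activity. In Dnmt3a ADD/ADD, Prkaca, the catalytic subunit gene of PKA, fell from 39.1 ± 2.94 to 30.8 ± 2.01 CPM (log2 -0.34), Pkib fell by 0.88 on the log2 scale and Impdh2 by 0.97. The PKA genes Akap10 (0.20) and Pkig (0.29) and the checkpoint kinase gene Chek1 (0.20) rose there, and Wee1 (-0.66) and Arpp19 (-0.17) fell. No other listed gene was called in either single mutant. Whether these calls held against either set of wild-type replicates or with mapped share as a covariate was not tested. Against replicates 1 to 8, 28.8% of all genes were called in Dnmt3a ADD/ADD and 22% in Dnmt3L ADD/ADD. The shares were 14.6% and 6.85% against replicates 9 to 18. Of the 12 oocyte markers 5 fell in Dnmt3L ADD/ADD (median log2 fold change -0.19) and 6 in Dnmt3a ADD/ADD (-0.29). Of the 5 theca markers tested 2 fell in each. Of the 12 granulosa and cumulus markers 2 fell in Dnmt3L ADD/ADD and 5 in Dnmt3a ADD/ADD, each by over 2-fold. The part of these shifts in the calls was not tested. In the double mutant the only genes called in the lists were Gnaz (-0.46), Adcy6 (0.69), Pde10a (-0.36), Gja1 (-2.25) and Ccnb1, the cyclin partner of CDK1 (0.18). Adcy6 ranged from 9.46 to 42.7 CPM in wild type and from 18.7 to 50.8 CPM in double mutants. The ranges of Gnaz and Pde10a overlapped too. Against wild-type replicates 1 to 8, of the same mapped class as the double mutants, 1.43% of all genes were called. With mapped share as a covariate 2.61% were. Whether these listed genes held in either setting was not tested. Gja1 is a gene of the follicle cells, whose markers fell in the double mutant at 7 of 12 genes, and their part in its change was not tested.

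By the fixed rule, the genes whose levels ran closest to a member over the 52 libraries were found among 8315 genes of at least 10 CPM on average. The measure was the root mean square difference in centred log2 CPM. Ube4b (0.0664) and A430033K04Rik (0.0674) ran closest to Wee2, whose own spread was 0.184. Rock1 (0.0807) and Paip2b (0.0809) ran closest to Pde3a, and Tmem184b (0.129) and Mapk3 (0.139) to Gpr3. The distances were 0.119 for Pkm to Cdc25b and 0.136 for Lrrc47 to Adcy9. For the scarce Adcy3 and Gpr12 the nearest genes, Sbds (0.281) and 4930550C14Rik (0.367), lay farther off. These are descriptions over libraries that share groups, depth and scaling.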

How the data were processed

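Single mouse oocytes were sequenced as oligo-dT primed, unstranded SMART-Seq HT libraries without molecular identifiers. Per the submitters' notes and the study's methods, the authors aligned reads to mm10 (STAR), counted them with featureCounts and HTSeq, and deposited raw counts per gene. The files have the column layout of featureCounts, and the strand setting of counting is not given in the sources used here. From these counts, edgeR 4.0.16 (R 4.3.3, limma 3.58.1) quasi-likelihood tests were fitted over all genes, with TMM scaling and filterByExpr at a minimum count of 10. The 42 FGO libraries gave 15726 genes and the 52 oocyte libraries 15784. Calls need a Benjamini-Hochberg adjusted p under 0.05, and the study's further limit of a 2-fold change was counted apart. The 7 members and all lists were chosen with earlier results of these data known. All members are named. From each list the text names up to 3 genes with the lowest p in MII oocytes and up to 2 in each mutant among those called, plus those a count of 5 or fewer covers, and the genes most like a member, up to 2 each. Alternatives were RLE, upper quartile and total count scaling, other filters (none beyond 1 count, or 50 counts), the exact test, DESeq2 1.42.0, only the groups compared, a replicate block, mapped share as a covariate, wild-type replicates 1 to 8 or 9 to 18 only, and each library left out. Restriction to libraries under or at least 80% mapped was added after seeing the data; that class came from the study's supplement. Exon lengths and positions are those of the count files, as are exon overlaps, the longest transcripts are from GENCODE M21, and start regions from RefSeq. The tests were checked on simulated data first.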

Additional observations from a re-analysis of the deposited data

Results flagged for a closer look

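One MII oocyte stood apart in Gpr3, with 125.0 CPM as the highest of the 10 libraries, and another in Adcy3, with 5.57 CPM. Of 28 gene and group pairs examined for a lone far library 2 were found, and chance gives about 1 in 20. The departures of the double mutant from the sum of the single mutant changes differed by a test of the difference itself, at Gpr3 (0.47), Wee2 (-0.30), Cdc25b (-0.35) and Adcy3 (-0.83), all on the log2 scale. With the class of mapped share as a covariate 14.2% of all genes were called. None of the 4 passed (adjusted p = 0.101 for Gpr3, 0.188 for Wee2, 0.278 for Cdc25b and 0.115 for Adcy3), and what part the mapped share has in them was not tested further.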

How the results depend on the processing

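Values below are log2 fold changes unless they are counts of the 7 genes called. The labels do not say that replicate numbers pair the samples. The deviations of same-numbered libraries correlated at -0.51 to 0.47. Differently numbered libraries were not compared, so this range cannot decide on pairing, and the block result is given only here. With the replicate block against wild type the count went to 4 for Dnmt3a ADD/ADD, 1 for Dnmt3L ADD/ADD and 0 for the double mutant. Of all genes 26.1%, 18% and 1.44% were called there. The count went to 1 in the double mutant against Dnmt3L ADD/ADD, beside 22.3% of all genes. Against wild-type replicates 1 to 8 only, the counts against wild type in the same order were 4, 1 and 0. The shares of all genes were 28.8%, 22% and 1.43%. Against replicates 9 to 18 only, the counts were 1 in each single mutant, 3 in the double mutant and 2 in MII oocytes (1 in Dnmt3L ADD/ADD being Adcy9 and 1 in Dnmt3a ADD/ADD being Pde3a). Of all genes 14.6% were called in Dnmt3a ADD/ADD, 6.85% in Dnmt3L ADD/ADD, 37.8% in the double mutant and 27.9% in MII oocytes. Under 80% mapped gave 0 for the double mutant against wild type, 0 against Dnmt3a ADD/ADD and 2 for MII. Of all genes 1.04%, 11% and 19.1% were called there. That class held only replicates 1, 2 and 8 of Dnmt3a ADD/ADD and replicates 1, 5 and 6 of MII. At least 80% gave 1 for Dnmt3L ADD/ADD and 2 for MII, beside 7.84% and 22.7% of all genes. With mapped share as a covariate the double mutant had 0 against wild type, 1 against Dnmt3a ADD/ADD, 0 against Dnmt3L ADD/ADD and 0 departures from additivity. Of all genes 2.61%, 12.9%, 1.18% and 14.2% were called there. The 2-fold limit gave 0 in every comparison. Total count scaling and no filter each gave 1 for the double mutant against wild type and 1 against Dnmt3L ADD/ADD. The shares of all genes were 12% and 24.7% with total count and 2.89% and 6.79% with no filter. Only the groups compared and the exact test each gave 1 against wild type, beside 7.27% and 9.84% of all genes. Counts also went up, to 4 against Dnmt3a ADD/ADD with only the groups compared or the exact test, to 3 against Dnmt3L ADD/ADD with a minimum count of 50, and to 5 in MII oocytes with the replicate block. The shares of all genes called in these settings were, in that order, 35.7%, 36.5%, 33.4% and 42%. Leaving out 1 library gave 0 to 1 calls in Dnmt3a ADD/ADD, 0 to 2 in the double mutant, 1 to 3 against Dnmt3a ADD/ADD and 1 to 3 against Dnmt3L ADD/ADD. For these runs the share of all genes called was not counted. The level of Cdc25b per kilobase became 29.9 CPM with the longest transcript.

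Reversals of direction fell on values that were not called. In Dnmt3L ADD/ADD, Gpr3 became 0.011 with the covariate, 0.029 with replicates 9 to 18 and 0.025 with at least 80% mapped, Adcy9 became 0.0053 with the block and 0.0008 with replicates 1 to 8, and Pde3a 0.090 and 0.088 with the same. In Dnmt3a ADD/ADD, with the block, replicates 1 to 8 and under 80%, Adcy9 became 0.12, 0.11 and 0.14 and Pde3a 0.051, 0.044 and 0.015. In the double mutant Adcy3 became 0.0005 with replicates 1 to 8. There, with the block, replicates 1 to 8 and under 80%, Pde3a became 0.039, 0.041 and 0.025, Wee2 0.036, 0.035 and 0.020, and Cdc25b 0.080, 0.082 and 0.066, and with the covariate Pde3a became 0.017 and Cdc25b 0.054. Against Dnmt3a ADD/ADD, with total count, covariate and under 80%, Gpr12 became 0.050, 0.058 and 0.17 and Pde3a 0.045, 0.077 and 0.011. Against Dnmt3L ADD/ADD, the covariate took Adcy9 to 0.074 and Pde3a to 0.092. Between single mutants, Adcy3 became -0.015 with at least 80% and Pde3a 0.015 with the covariate. For departures from additivity, Adcy9 became 0.022 with total count, 0.10 with the covariate and 0.041 with replicates 9 to 18, and Pde3a became -0.0053 with RLE, -0.0049 with DESeq2, -0.10 with the block and -0.092 with replicates 1 to 8. In MII oocytes, total count took Gpr12 to -0.0035 and Pde3a to -0.0066, replicates 9 to 18 took Adcy3 to -0.041 and Pde3a to -0.0028, and at least 80% took them to -0.055 and -0.014. Leaving out 1 library gave Pde3a -0.037 to 0.0004 in Dnmt3L ADD/ADD, Adcy3 -0.0018 to 0.19 between single mutants, Gpr12 -0.10 to 0.13 and Pde3a -0.028 to 0.019 in the double mutant against Dnmt3a ADD/ADD, and Pde3a -0.013 to 0.041 for additivity. The cause of each was not tested.

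Among all genes called, scaling moved the share that was lower from 57.7% to 72.7% in MII oocytes (total count) and from 55.0% to 65.7% in the double mutant against wild type (upper quartile). Gpr12 and Adcy3, with the fewest counts, had the widest intervals of the 7.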
